A study of Mus musculus with 2 samples.

Results

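The 5 microRNA hairpins encoded inside Clcn5 on the mouse X chromosome (Mir532, Mir188, Mir362, Mir501 and Mir500) were taken by their GENCODE M21 gene identifiers from tables of 2202 annotated hairpins, and all 5 were counted in the heart. A hairpin is the folded RNA precursor from which 1 or both mature arms are cut. The tissue was the heart of female B6CASTF1/J mice, the first-generation hybrid of C57BL/6J and CAST/EiJ, at 25 days of age. There were 2 libraries, labelled biological replicates 1 and 2 of a single group with no treatment named, and their labels number the animals separately but carry the same donor identifier. A free-text label gives the age in another unit than the age field used here. With this single group, the data describe the level of each hairpin and the difference between these libraries.

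Clcn5 encodes ClC-5, an exchanger of chloride and protons in endosomes that is best known from the kidney proximal tubule, where its loss causes Dent disease. MicroRNAs within an intron can be transcribed with their host gene, after which the enzymes Drosha and Dicer cut out a short duplex. The strand loaded into an Argonaute protein recognises messenger RNAs mainly through its seed, bases 2 to 8 from its 5′ end. A cluster transcribed together can still give different amounts of each mature microRNA, since every hairpin is cut, loaded and degraded on its own.

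All 5 hairpins lie on the minus strand, as Clcn5 does, within 10.8 kb of one another on mm10. In the direction of transcription Mir532 comes first (chrX:7248402-7248497), followed after 345 nt by Mir188 (chrX:7247989-7248056). Mir362 (chrX:7241982-7242046) lies a further 5942 nt downstream, then Mir501 (chrX:7241243-7241351) after 630 nt and Mir500 (chrX:7237683-7237774) after 3468 nt. Clcn5 itself runs from 7153810 to 7319358. The same intron of 103.6 kb holds all of them: intron 3 of the coding transcript Clcn5-202 and intron 2 of Clcn5-203. None overlaps an exon, and the shorter coding transcript Clcn5-201 begins downstream of the cluster and does not span it. No other annotated hairpin lies within Clcn5, and none is annotated on the strand opposite a member.

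The mature sequences are shown because their seeds relate members of the cluster to one another, in capitals here from base 2 to base 8. RefSeq (GRCm38.p6) matched all 5 hairpins and gave 9 mature arms. The 5′ arm of Mir532, miR-532-5p, was not among these 9 and is named only. Its seed was not compared, and it is not in capitals in the Mir532 hairpin.
miR-532-3p: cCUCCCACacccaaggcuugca
miR-188-3p: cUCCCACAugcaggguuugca
miR-188-5p: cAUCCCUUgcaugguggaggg
miR-362-3p: aACACACCuguucaaggauuca
miR-362-5p: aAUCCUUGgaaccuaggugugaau
miR-501-3p: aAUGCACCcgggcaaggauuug
miR-501-5p: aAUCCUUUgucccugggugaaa
miR-500-3p: aAUGCACCugggcaaggguuca
miR-500-5p: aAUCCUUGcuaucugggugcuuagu
Among these 9, miR-501-3p and miR-500-3p have the same seed, and so do miR-362-5p and miR-500-5p. The seed of miR-501-5p differs from that of miR-362-5p and miR-500-5p at base 8 only. The neighbours miR-532-3p and miR-188-3p share 6 seed bases when set off by 1 position. Outside the cluster, 1 mature microRNA shares the seed of miR-362-3p (miR-329-3p) and 1 that of miR-188-5p (miR-7061-3p). In these hearts the Mir329 hairpin had 48 counts in each library, and Mir7061 had 0 in both.

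The 3′ arms of Mir500 and Mir501 are the closest pair. Over 22 positions counted from the 5′ end, miR-501-3p differs from miR-500-3p by U9C, G18A, C21U and A22G, an identity of 81.8%. The hairpins of these 2, and that of the most counted member, are shown with the RefSeq mature arms in capitals.
Mir532 hairpin: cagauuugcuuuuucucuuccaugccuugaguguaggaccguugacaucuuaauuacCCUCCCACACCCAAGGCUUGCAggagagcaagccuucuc
Mir501 hairpin: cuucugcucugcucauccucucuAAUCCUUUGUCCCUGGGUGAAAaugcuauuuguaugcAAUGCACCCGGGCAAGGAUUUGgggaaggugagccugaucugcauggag
Mir500 hairpin: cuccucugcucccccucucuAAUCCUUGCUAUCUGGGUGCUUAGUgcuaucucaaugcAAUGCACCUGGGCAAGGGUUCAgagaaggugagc
Mir501 and Mir500 have a common run of 14 nt, the longest within the cluster, and Mir532 and Mir188 one of 10 nt. Against the other annotated hairpins, read on both strands, the longest common run was 13 nt for Mir532, 12 nt for Mir188 and Mir500, and 11 nt for Mir362 and Mir501. These runs are shorter than each of the 9 mature arms, which have 21 to 25 nt. Whether their reads also match places outside annotated hairpins was not tested. In RNAfold predictions the minimum free energy ranged from -0.346 kcal/mol per nt for Mir532 to -0.455 kcal/mol per nt for Mir500, with a median of -0.369 kcal/mol per nt over 2202 hairpins. Mir532, the most counted member, was thus the least stable of the 5 per nucleotide. This depends on the annotated length. Over the whole hairpin Mir532 had -33.2 kcal/mol, beside -28.8 for Mir188, -28.5 for Mir362, -46.9 for Mir501 and -41.9 for Mir500.

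Levels are counts on the strand of the hairpin, given as CPM (counts per 1000000 hairpin counts of the library), with 95% exact binomial intervals for each library. The libraries held 2050498 hairpin counts in replicate 1 and 2661090 in replicate 2, so a floor of 3 counts stood at 1.46 and 1.13 CPM. Both the intervals and the floor are for counting error alone, since reads copied from 1 molecule by PCR could not be recognised. Each member lay above the floor in both libraries, and no read of any member was on the opposite strand.

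Mir532 supplied most of the reads of the cluster in both hearts. It had 1584 counts in replicate 1, or 772 CPM (735 to 811), and 2941 in replicate 2, or 1105 CPM (1066 to 1146). Its mean was 939 ± 235 CPM (SD, n = 2), and it ranked 76 and 58 among the 2202 hairpins. Replicate 2 was the higher, with intervals that do not overlap.

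Mir501, a microRNA studied in regenerating skeletal muscle, came second. It had 409 counts (199 CPM, 181 to 220) in replicate 1 and 645 counts (242 CPM, 224 to 262) in replicate 2, a mean of 221 ± 30.3 CPM (SD, n = 2). It ranked 112 and 96. Again replicate 2 was the higher and the intervals did not overlap.

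Mir188, whose product has been studied in the choice of marrow stromal cells between bone and fat, went the other way in these libraries. It had 240 counts (117 CPM, 103 to 133) in replicate 1 and 195 counts (73.3 CPM, 63.4 to 84.3) in replicate 2, a mean of 95.2 ± 30.9 CPM (SD, n = 2), and ranked 134 and 150. Mir362 was the lowest member, with 71 counts (34.6 CPM, 27.0 to 43.7) in replicate 1 and 26 counts (9.77 CPM, 6.38 to 14.3) in replicate 2. Its mean of 22.2 ± 17.6 CPM (SD, n = 2) had the widest spread relative to its size, and it ranked 191 and 250. For both Mir188 and Mir362 the lower library was replicate 2, without overlap of the intervals.

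Mir500 was the steadiest member in CPM, while Mir501 was the steadiest in its share of the members' counts, given below. It had 148 counts (72.2 CPM, 61.0 to 84.8) in replicate 1 and 169 counts (63.5 CPM, 54.3 to 73.8) in replicate 2, a mean of 67.8 ± 6.13 CPM (SD, n = 2). Its intervals overlapped between the libraries.

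**Figure D1:**
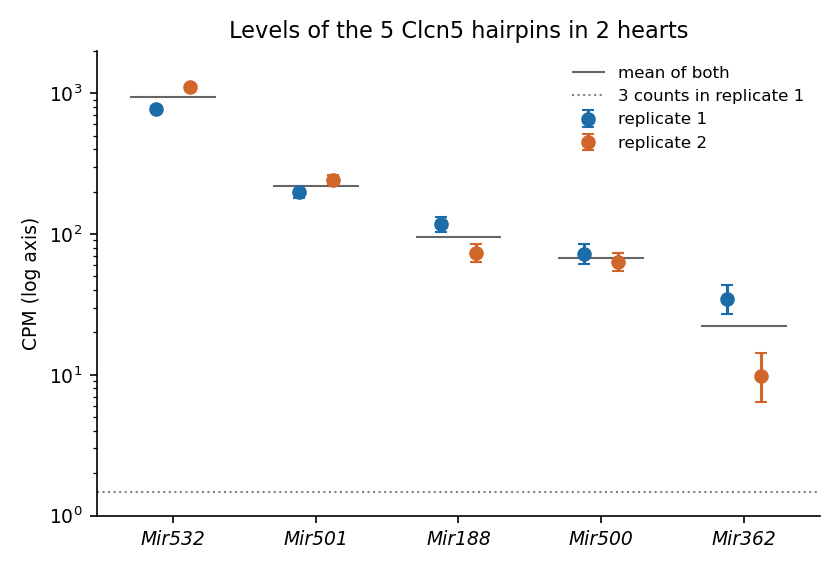
CPM on a log axis for each member in replicate 1 (blue) and replicate 2 (orange). Bars are 95% exact binomial intervals, grey lines are means of both libraries, and the dotted line is 3 counts in replicate 1. Mir532 stands highest in both, from 772 to 1105 CPM, and Mir362 lowest, from 34.6 down to 9.77 CPM.

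The order Mir532, Mir501, Mir188, Mir500, Mir362 was the same in both libraries. Mir532 exceeded Mir501 by 3.87-fold in replicate 1 and 4.56-fold in replicate 2, and Mir501 exceeded Mir188 by 1.70-fold and 3.31-fold. Mir188 and Mir500 were apart in replicate 1 (1.62-fold), but their intervals overlapped in replicate 2 (1.15-fold), so these 2 neighbours are not ordered beyond counting error there. Mir500 exceeded Mir362 by 2.08-fold and 6.50-fold. From the top to the bottom of the cluster the ratio was 22.3 in replicate 1 and 113 in replicate 2. Per nucleotide of annotated hairpin the order held as well, with mean levels of 9.78, 2.03, 1.40, 0.737 and 0.342 CPM per nt. Reads come from the mature arms, so this length is not the length read.

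**Figure D2:**
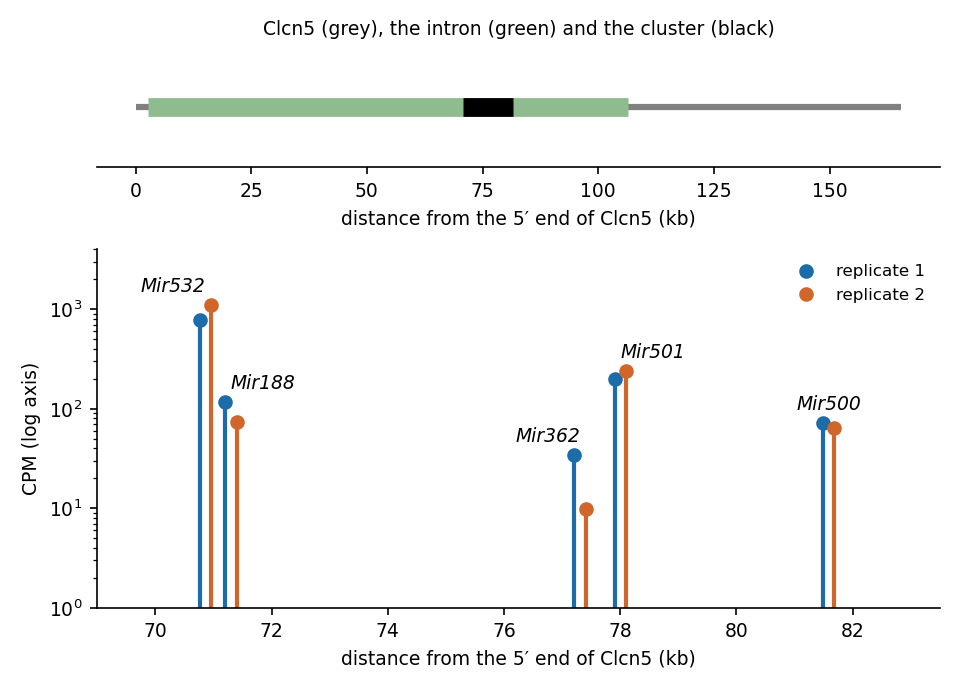
Top, Clcn5 as a line from its 5′ end (distance in kb), with the intron that holds the cluster in green and the cluster in black. Bottom, CPM (log axis) of the 5 members by distance from the 5′ end of Clcn5 in replicates 1 (blue) and 2 (orange), drawn slightly apart for sight. Close neighbours differ in level: Mir532 and Mir188 are 345 nt apart, and Mir362 and Mir501 are 630 nt apart.

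Position in the intron did not give the order. Mir532 and Mir188, the nearest neighbours, had 939 and 95.2 CPM on average. Mir362, the lowest, lies between Mir188 and Mir501, both of which were higher in each library.

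Summed over the cluster, the members had 2452 counts in replicate 1 and 3976 in replicate 2, or 1196 and 1494 CPM. The mean was 1345 ± 211 CPM (SD, n = 2), which is 0.134% of the hairpin counts. Their reads were 4.61% and 4.81% of those of the 142 hairpins on chromosome X, of which 29 had at least 10 counts in both libraries. On this chromosome the members ranked 9 (Mir532), 11 (Mir501), 15 (Mir188), 19 (Mir500) and 25 (Mir362) by mean CPM. In whole-tissue RNA, fewer cells of a type and less RNA per cell cannot be told apart, so these levels do not say which heart cells held the microRNAs.

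The make-up of the cluster, which does not depend on how the libraries are scaled, differed between the hearts. Mir532 held 64.6% of the members' counts in replicate 1 (62.7 to 66.5) and 74.0% in replicate 2 (72.6 to 75.3). Mir188 held 9.79% (8.64 to 11.0) and 4.90% (4.25 to 5.62). Mir362 held 2.90% (2.27 to 3.64) and 0.654% (0.428 to 0.957). Mir500 held 6.04% (5.13 to 7.05) and 4.25% (3.64 to 4.92). The intervals of these 4 did not overlap between the libraries. The shares are parts of a whole, so the larger share of Mir532 in replicate 2 lowers those of the others. Mir500 had 148 counts in replicate 1 and 169 in replicate 2, and its CPM intervals overlapped. Mir501 held 16.7% (15.2 to 18.2) and 16.2% (15.1 to 17.4), with overlapping intervals, while Mir500, whose seeds it partly shares, made up a smaller part.

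**Figure D3:**
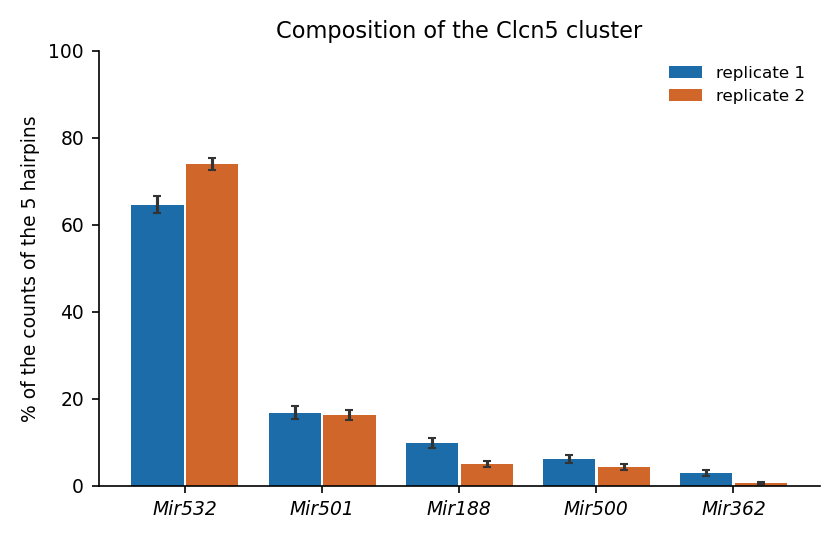
Percent of the members' counts held by each hairpin in replicate 1 (blue) and replicate 2 (orange), with 95% exact binomial intervals as bars. Mir532 holds 64.6% and 74.0%, Mir501 16.7% and 16.2%, and Mir188, Mir500 and Mir362 are each lower in replicate 2.

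The comparison of the libraries asked whether the 5 hairpins differed in the same direction. The 326 hairpins that reached 10 counts in either library were tested. Each pair of counts was set against the ratio of library sizes scaled by TMM (edgeR's trimmed mean of M values) in an exact two-sided binomial test, with Benjamini-Hochberg adjustment over all 326. It is a test of these libraries, not of a condition, and an exact two-sided test over 2 samples could not go below p = 0.5. Of the members, 4 of 5 passed at adjusted p under 0.05, where 62.6% of all tested hairpins did. They were split, with 2 higher in replicate 2 (background 36.2%) and 2 lower (background 26.4%).

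The members that were higher in replicate 2 were the most counted pair. Mir532 was 1.68-fold higher (95% exact interval 1.58 to 1.79, log2 ratio 0.75 on TMM-scaled CPM plus 1, adjusted exact binomial p = 1.17e-63). Mir501 was 1.43-fold higher (1.26 to 1.62, log2 ratio 0.51, adjusted exact binomial p = 4.54e-08). With library totals in place of TMM these folds were 1.43 and 1.22. Both stayed past the test, but Mir532 then no longer reached 1.5-fold.

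Mir362 and Mir188 were lower in replicate 2. Mir362 was 3.02-fold lower (1.90 to 4.93, log2 ratio -1.51, adjusted exact binomial p = 9.79e-07), on 71 and 26 counts. Mir188 was 1.36-fold lower (1.12 to 1.65, log2 ratio -0.44, adjusted exact binomial p = 0.00305). Mir500 did not pass (log2 ratio 0.05, fold 1.03 with an interval of 0.823 to 1.30, adjusted exact binomial p = 0.864), and its sign depended on the scaling. With at least 1.5-fold asked for as well, 2 of 5 members passed, Mir532 higher and Mir362 lower, where 39.3% of tested hairpins did (19.9% higher and 19.3% lower). That pair depended on the scaling: with library totals Mir188 was 1.60-fold lower and passed while Mir532 did not, which left 0 higher and 2 lower.

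**Figure D4:**
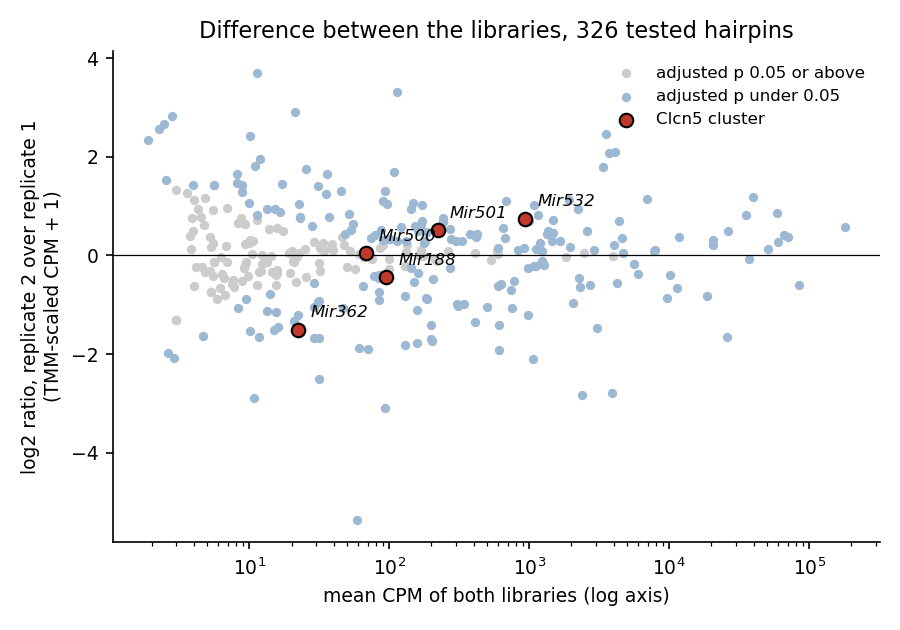
Log2 ratio of replicate 2 over replicate 1 (TMM-scaled CPM plus 1) against mean CPM (log axis) for 326 hairpins, in blue where the adjusted exact binomial p was under 0.05 and in grey otherwise, with the members in red. Mir532 (0.75) and Mir501 (0.51) lie above 0, Mir500 (0.05) near it, and Mir188 (-0.44) and Mir362 (-1.51) below it.

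These differences lay inside the range of the ratios of all tested hairpins. That range comes from the same 2 libraries and was not matched for level. The median log2 ratio of the members was 0.05, beside 0.09 over all tested hairpins. Ratios at least as far from 0 as that of Mir362 were seen in 43 of 326 hairpins (13.2%), and as that of Mir532 in 126 (38.7%). The biological coefficient of variation over all tested hairpins was 0.467.

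Marker hairpins of the heart's cell types also differed between the libraries, and their part in these results was not tested. Reads matching several places entered no hairpin count. Markers listed at more than 1 locus (Mir1a, Mir133a and Mir199a) may therefore be undercounted, and how far was not tested. The shares below cover only the reads that were counted. Of 9 striated muscle markers 4 reached 10 counts in each library, and the list's share of counts was 0.450% and 0.831%. Mir499 led this list in replicate 1 (5391 counts, against 3322 for Mir208a) and Mir208a in replicate 2 (15598 against 6167), both within myosin genes. Mir126a, the endothelial marker, held 10.8% and 6.10%, the smooth muscle and pericyte pair Mir143 and Mir145a 2.94% and 4.83%, and the 5 fibroblast markers 0.624% and 0.242%, with Mir199a-1 at 0 in both. The 3 erythroid markers held 0.178% and 0.0869%, the 5 leukocyte markers 0.607% and 0.612%, the 7 epithelial markers 0.0404% and 0.0370%, and the 5 of liver, kidney and gut 0.0149% and 0.0236%. Within 5 of these lists, members passed the binomial test in both directions. Of the striated muscle markers 1 was higher in replicate 2 (Mir208a) and 2 were lower, of the fibroblast markers 1 was higher (Mir21a) and 1 lower (Mir214), of the epithelial markers 2 were higher and 2 lower, and of the liver, kidney and gut markers 1 was higher (Mir122) and 3 were lower. The leukocyte markers had 4 higher and 1 lower. All 3 erythroid markers and Mir126a were lower, and Mir143 and Mir145a were higher. Over all tested hairpins 36.2% passed as higher in replicate 2 and 26.4% as lower.

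Members of other clusters also differed from one another. In Mcm7, Mir93 had 4060 and 4002 CPM, Mir106b 770 and 427 CPM, and Mir25 611 and 203 CPM. In this cluster Mir25 (log2 ratio -1.36) and Mir106b (-0.62) were lower in replicate 2. Mir93 was not (log2 ratio 0.21 with TMM, though its CPM over library totals was slightly lower). In Dalrd3, Mir191 had 11075 and 12244 CPM and Mir425 640 and 554 CPM. Mir425, the lower of this pair, did not pass the binomial test (log2 ratio 0.02). In the X-linked cluster of Mir322, with 5 hairpins matched by symbol, the highest-to-lowest ratio was 57.5 and 56.9, and 4 of the 5 passed the binomial test as higher in replicate 2 with TMM and 0 as lower (background 36.2% higher). Mir542, one of the 4, had 619 and 582 CPM over library totals. The highest-to-lowest ratio was 6.64 and 19.7 in Mcm7 and 17.3 and 22.1 in Dalrd3. The ratio in the Clcn5 cluster, 22.3 and 113, lay above those of Mcm7 and Dalrd3 in both libraries. The ratio given for the Mir322 cluster leaves out Mir450-2, which was not matched by symbol. Mir450-2 had 26 and 55 counts, against 7536 and 13588 for Mir322. With Mir450-2 the ratio of that cluster would lie above that of the Clcn5 cluster in both libraries. No test of the difference was made.

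The hairpins whose levels in both libraries lay nearest to each member were found among 288 with at least 10 counts in both, by Euclidean distance over the 2 log2 values of TMM-scaled CPM plus 1. Nearest to Mir532 were Mir10a (837 and 1166 CPM, distance 0.14) and Mir221 (798 and 1375 CPM, 0.32). Nearest to Mir501 were Mir30b (0.22) and Mir142 (0.25), and nearest to Mir188 were Mir148a (0.16) and Mir1843b (0.22). Mir362 lay closest to Mir200b (74 and 28 counts, 0.11) and Mir877 (65 and 27 counts, 0.13). Mir500 lay closest to Mir1249 (0.07) and Mir345 (0.09). No member was among the 2 nearest of another.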

How the data were processed

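Each deposited table gives unnormalized counts of reads for every hairpin, in columns for either strand, the hairpin strand and the opposite one. Reads were placed on mm10 with GENCODE M21, per the file headers of the deposited notes; the aligner and counter are not given in the sources used here. Reads matching several places (38.5% and 41.6% of 5005996 and 6452546 reads) entered no hairpin count, and arms were not separated. Sequence differences of the CAST/EiJ allele from mm10 were not examined.

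Counts on the hairpin strand were used, and rows naming no hairpin stayed out of totals. Scaling and the biological coefficient of variation came from edgeR 4.0.16 (R 4.3.3), size factors from DESeq2 1.42.0, binomial tests and intervals from scipy 1.17.1 and folding from ViennaRNA 2.7.2. An edgeR quasi-likelihood test was not possible with 1 group. The binomial script was run on simulated data with counting error alone, which cannot show how it behaves with the spread between these libraries. P-values set the difference between these libraries against counting error alone and include no spread between animals. The differences may be technical.

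The members and lists were chosen with earlier results of these data known. Named were the members, the 2 hairpins nearest to each, 3 other clusters, marker hairpins and hairpins sharing a seed. Alternatives were other columns, denominators, scalings, count minimums (1 and 50), pseudocounts (0.5 and 5 CPM), a fold minimum, and leaving out the 10 highest hairpins or each replicate.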

Additional observations from a re-analysis of the deposited data

How the results depend on the processing

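The mean of the summed members, 1345 CPM, followed its denominator by construction: 1901 CPM in the column without regard to strand, where the members' counts were the same but the library sums smaller, 4359 CPM without the 10 highest hairpins and 553 CPM over all reads. It ranged from 1196 to 1494 CPM when either replicate was left out, and the share of Mir532 from 64.6% to 74.0%. Members past the binomial test numbered 4 (2 higher, 2 lower) in each of the 8 alternatives of column, scaling, count minimum and pseudocount, and 2 (1 higher, 1 lower) with at least 1.5-fold, where Mir188 and Mir501 fell short. The pseudocount enters the log2 ratio and not the binomial test, so its settings could not change a call by adjusted p alone. In settings chosen after seeing the data, the 1.5-fold minimum joined to total count scaling, or to at least 50 counts, gave 0 higher and 2 lower (Mir188 and Mir362), and to each of the other 6 alternatives 1 and 1. Mir500, past the test in none of them, turned negative with at least 50 counts (-0.12), at least 1 count (-0.058), without the 10 highest hairpins (-0.067), by total count (-0.18) and with DESeq2 size factors (-0.031). Total count scaling moved the median of all tested hairpins from 0.09 to -0.14 and that of the members from 0.05 to -0.18. Mir362 rests on 26 counts in replicate 2, which limits its precision. No paired analysis was possible because the libraries form a single group.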
